A study of Homo sapiens with 8 samples.

Results

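The insulin-like growth factor (IGF) axis was followed in T47D cells through 10 genes: 5 binding proteins (IGFBP2, IGFBP3, IGFBP4, IGFBP5 and IGFBP6), 3 receptors (IGF1R, IGF2R and INSR) and 2 receptor adaptors (IRS1 and IRS2). The genes were chosen by family name, with earlier results of these 8 arrays in view, so the values below are a description and the adjusted p-values say where a gene stood among all probe sets, not that the family was picked independently. They were found by symbol among the 20172 genes of 21214 named probe sets, and 11 probe sets carry them, IGF1R having 2. The IGFBP6 probe set also carries the name C12orf57, and the 2 genes cannot be separated there.

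T47D is an established line of human breast carcinoma with luminal features and the estrogen receptor. Per the labels, the cells of one line held a doxycycline-inducible hairpin RNA (shRNA) against EglN2 and those of the other the control hairpin Scr, both brought in by lentivirus. RNA was taken at day 2, after 48 h of doxycycline at 1 ug/ml, and at day 0, without it. No day 2 array was without doxycycline, so an effect of the drug and one of time in culture cannot be told apart. The 4 groups, each of 2 arrays, are EglN2 shRNA day 2, EglN2 shRNA day 0, Scr day 2 and Scr day 0; 1 EglN2 hairpin is labelled, and whether either line was a clone is not stated. EglN2 belongs to the enzymes that hydroxylate prolines of hypoxia-inducible factors, and its gene, EGLN2, was lowest where the hairpin had been induced: 8.26 and 8.29 in EglN2 shRNA day 2 cells, 8.85 and 9.04 in EglN2 shRNA day 0 cells, 8.81 and 8.90 in Scr day 2 cells, and 8.97 and 9.0 in Scr day 0 cells (probe set shared with RAB4B-EGLN2). Its change of -0.67 (SE 0.11) in the EglN2 shRNA line did not pass over all probe sets (limma adjusted p = 0.134). All 10 luminal markers looked up, ESR1, PGR, GATA3 and keratin 8 among them, had a probe set above the median of the named probe sets, against 2 of 13 measured markers of leukocytes, fibroblasts, endothelium and basal epithelium (COL1A1 and KRT14). Another ESR1 probe set, with a mean of 5.78 over the 8 arrays, lay below that median. Over the luminal marker probe sets the mean level ran from 11.50 to 11.58 in EglN2 shRNA day 2 cells and from 11.58 to 11.60 in Scr day 2 cells. At day 0 it ran from 11.59 to 11.67 in EglN2 shRNA cells and from 11.64 to 11.65 in Scr cells. For the list of other cells the ranges at day 2 were 6.38 to 6.58 in EglN2 shRNA cells and 6.50 to 6.51 in Scr cells. At day 0 they were 6.46 to 6.50 in EglN2 shRNA cells and 6.54 to 6.68 in Scr cells. The part of these markers in the results was not tested.

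The IGF ligands act through the tyrosine kinase IGF1R and, with insulin, through its close relative INSR. Active receptors phosphorylate the adaptors IRS1 and IRS2, which recruit phosphatidylinositol 3-kinase and so switch on AKT. The binding proteins hold the ligands outside the cell, in some settings keeping them from the receptor and in others delivering them. IGF2R has no kinase; it takes IGF2 into the cell for breakdown and carries lysosomal enzymes. In luminal breast cancer cells this axis works together with the estrogen receptor, and IGFBP4, IGF1R and IRS1 are known estrogen-responsive genes.

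Levels are given as RMA log2 values, one per probe set, so a difference of 1 is a doubling; levels of different probe sets are not comparable as amounts of RNA. Each difference was fitted with limma over all 8 arrays, and a probe set was called when its p, adjusted by Benjamini-Hochberg over the 21214, was under 0.05. With 2 arrays a group the number of arrays limits precision: the median standard error (SE) of a difference between 2 groups was 0.12. A lack of overlap between 2 groups is weak evidence, since its exact permutation p is 0.333. The share of all probe sets without overlap was not counted. The labels name replicates but not separate cultures, so p-values speak only of the variation among these arrays, possibly technical. In bulk RNA, fewer cells expressing a gene and less RNA per cell cannot be told apart.

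Of the 10 genes, IGFBP5 was the one that passed the test, and it was lower in the EglN2 shRNA line. Both IGF1R probe sets were also lower in that line at day 2, but did not pass, and IRS1 was lower in it at day 0, again short of the threshold. IGFBP2, IGFBP3, IGFBP4, IGF2R, INSR and IRS2 differed between the lines by at most 0.28 at either day. The plot of levels by array shows these patterns side by side.

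**Figure D1:**
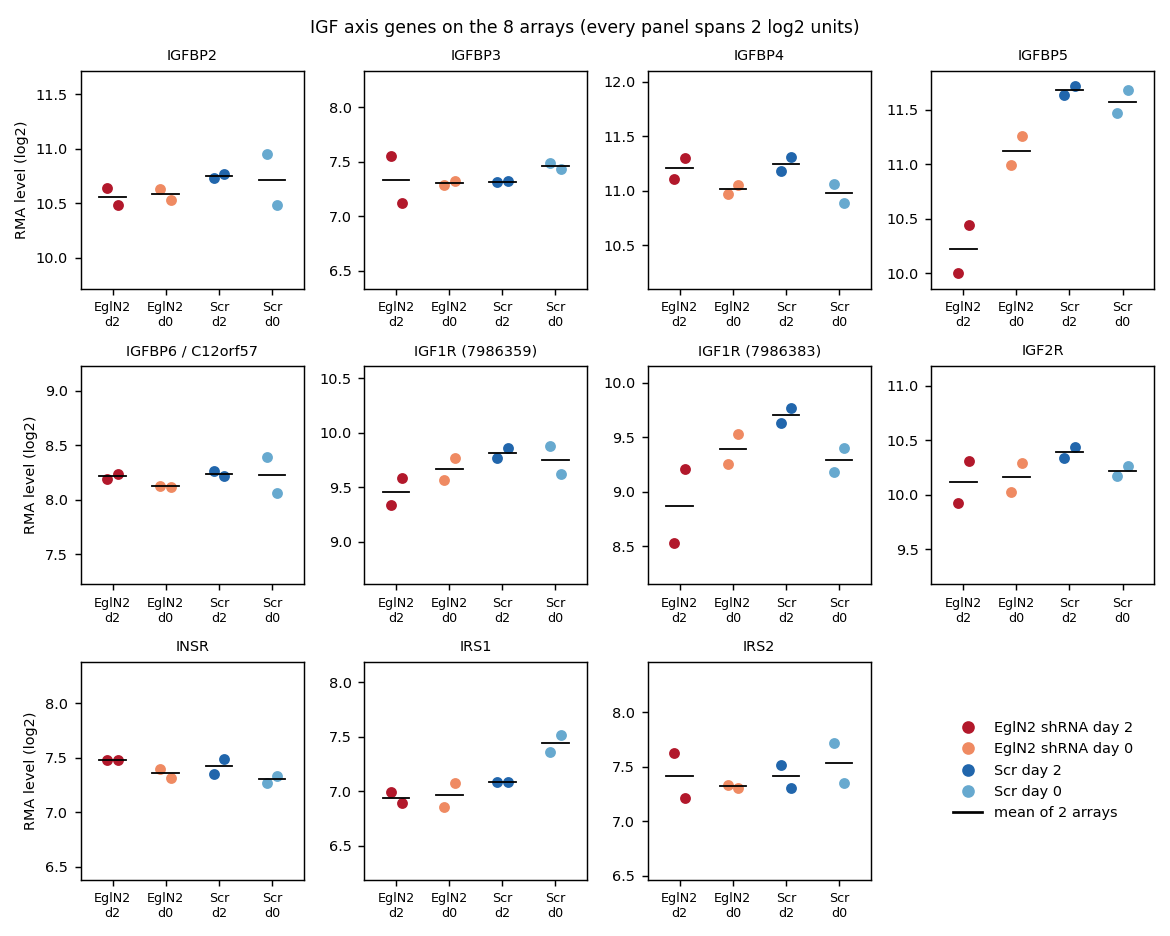
RMA log2 level of the 11 probe sets (vertical axis, each panel spanning 2 log2 units) on the 8 arrays, grouped along the horizontal axis by line and day; points are arrays and lines the mean of 2. IGFBP5 is at 10 and 10.44 in the EglN2 shRNA day 2 arrays, below every array of the other groups, and the other panels are much flatter except for IGF1R probe set 7986383.

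IGFBP5 encodes a secreted binding protein of the mammary gland and bone that also binds extracellular matrix. Its gene lies on chromosome 2 beside that of IGFBP2. The promoter window of RefSeq (GRCh38.p14, chr2:216695500-216695799, minus strand; 250 bases before the start site and 50 from it on) is shown because the result turns on this gene:
IGFBP5: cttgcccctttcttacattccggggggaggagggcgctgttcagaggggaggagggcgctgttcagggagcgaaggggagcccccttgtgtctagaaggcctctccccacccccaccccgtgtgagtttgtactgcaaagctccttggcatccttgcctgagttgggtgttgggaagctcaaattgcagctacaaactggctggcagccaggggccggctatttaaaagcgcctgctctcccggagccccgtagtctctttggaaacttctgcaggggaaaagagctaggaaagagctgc
The window was searched on both strands for ACGTG, a core bound by hypoxia-inducible factors, which the EglN enzymes regulate. It was also searched for GTAAACA, a core bound by FOXO factors, which AKT inhibits. Other forms of these cores were not searched. Matches are in capitals in the windows printed here, and that of IGFBP5 holds neither. It has a GC content of 59.0% and 9 CG pairs, close to the medians of the 35116 windows in the table (58.67% and 14).

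IGFBP5 read 10 and 10.44 in EglN2 shRNA day 2 cells, 10.99 and 11.26 in EglN2 shRNA day 0 cells, 11.64 and 11.72 in Scr day 2 cells, and 11.47 and 11.68 in Scr day 0 cells. The EglN2 shRNA day 2 arrays were the lowest, the EglN2 shRNA day 0 arrays came next without overlap, and the 2 Scr groups overlapped at the top. After doxycycline the mean was 10.22 ± 0.31 in the EglN2 shRNA line and 11.68 ± 0.06 in the Scr line (SD, n = 2 each). That difference of -1.46 (SE 0.16, 95% confidence interval -1.82 to -1.10, limma adjusted p = 0.0234) corresponds to 36.3% of the Scr level, with an interval of 28.3% to 46.6%. It was 1 of 16 probe sets called between the lines at day 2 (0.0754% of those tested), 14 of which were lower, and IGFBP5 had the fourth smallest p. A single probe set of the table had a more negative difference at that day. The call was lost, with an adjusted p of 0.136, without EglN2 shRNA day 2 replicate 1. It was also lost when all probe sets of the arrays entered (0.249) or only the 4 arrays compared (0.258), without Scr day 2 replicate 1 (0.27) or replicate 2 (0.308), and without either Scr day 0 array (0.0666 for each). Leaving out an array put the difference anywhere from -1.68 to -1.24.

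**Figure D2:**
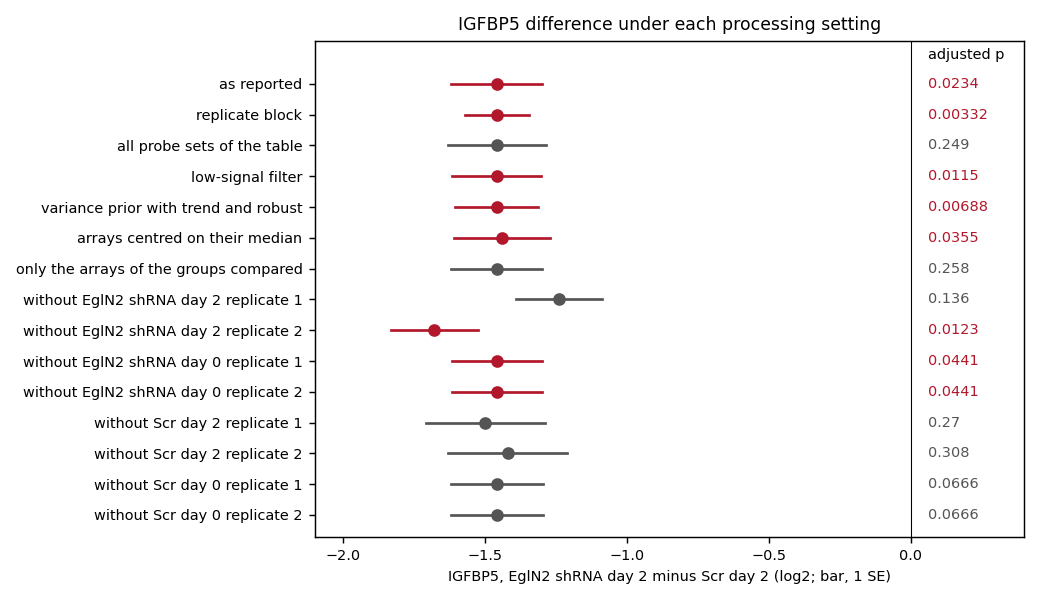
Difference in IGFBP5 between EglN2 shRNA day 2 and Scr day 2 cells (horizontal axis, log2; points are estimates, bars 1 SE) as reported and under 14 alternatives, with the adjusted p at the right and red for those under 0.05. The estimate stays between -1.68 and -1.24 throughout, while the adjusted p runs from 0.00332 to 0.308.

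Within the EglN2 shRNA line, IGFBP5 was 10.22 ± 0.31 at day 2 and 11.13 ± 0.19 at day 0 (SD, n = 2 each), a change of -0.91 (SE 0.16, confidence interval -1.26 to -0.55) to 53.4% of the day 0 level. Each day 2 array lay below each day 0 array, with differences of -1.26 to -0.55 between single arrays. These differences also cross replicate numbers, and in every group replicate 1 read lower than replicate 2. The change did not pass (limma adjusted p = 0.172). It did when replicate number was fitted as a block (limma adjusted p = 0.0398), but the labels do not say what that number marks. Over all probe sets, without the block, the change was the fifth most negative and had the rank of 31 by p. Here 2 probe sets of the table were called (0.00943%), neither of them a member, and 5.77% had an unadjusted p under 0.05, as did 2 of the 11 member probe sets. In the Scr line the change was 0.11 (SE 0.16, confidence interval -0.25 to 0.46, adjusted p = 0.790), with arrays that overlapped. The Scr comparison called 0% of the table at the adjusted threshold and 12.9% at an unadjusted p under 0.05, where 2 member probe sets also stood, those of IGFBP4 and IRS1.

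The difference between those changes, which asks whether IGFBP5 changed differently from day 0 to day 2 in the 2 lines, was -1.01 (SE 0.23, confidence interval -1.52 to -0.50). It ranked 41st by p and did not pass (limma adjusted p = 0.652), in a comparison that called 0% of the table, with 7.12% at an unadjusted p under 0.05. Members at that unadjusted level were IGFBP5 and IGF1R probe set 7986383. Before doxycycline IGFBP5 was already lower in the EglN2 shRNA line, 11.13 ± 0.19 against 11.58 ± 0.15 in the Scr line at day 0 (SD, n = 2 each), without overlap. That difference, -0.45 (SE 0.16, confidence interval -0.81 to -0.09), did not pass (adjusted p = 0.455) where 0% of the table was called and 10.4% had an unadjusted p under 0.05, the members IGFBP5 and IRS1 among them. Averaged over both days, IGFBP5 was lower in the EglN2 shRNA line than in the Scr line by 0.96 (difference -0.955, SE 0.11, adjusted p = 0.0422), a comparison with 7 probe sets called (0.033%) and 8.07% at an unadjusted p under 0.05, where IGFBP5, IRS1 and both IGF1R probe sets stood. That call was lost without any single array other than EglN2 shRNA day 2 replicate 2, at adjusted p from 0.0757 to 0.351, when arrays were centred on their medians (0.0769), and with all probe sets (0.392). The comparisons share arrays, so their IGFBP5 values are not independent of each other.

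Genes whose level followed IGFBP5 most closely over the 8 arrays were FOXK1 (Pearson r = 0.995, Spearman rho = 0.958), OSBPL2 (0.982 and 0.952) and EXOSC7 (0.975 and 0.881), out of 1059 single-gene probe sets whose group means ranged over at least 0.5. These are descriptions over 4 groups of 2 arrays, and the points share their groups. For IGFBP5, FOXK1 and OSBPL2 replicate 1 was in no group above replicate 2, so the order of replicates enters r as well. FOXK1, a forkhead transcription factor, read 8.62 and 8.80 in EglN2 shRNA day 2 cells, 9.07 and 9.19 in EglN2 shRNA day 0 cells, 9.39 and 9.42 in Scr day 2 cells, and 9.36 on both Scr day 0 arrays. It had the same order of groups as IGFBP5 over a smaller range.

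**Figure D3:**
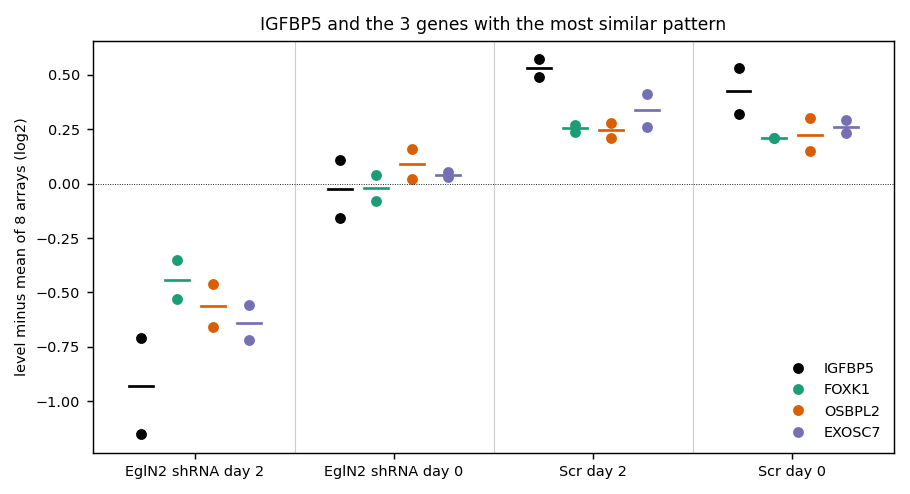
Level minus the mean of the 8 arrays (vertical axis, log2) of IGFBP5, FOXK1, OSBPL2 and EXOSC7 by line and day; points are arrays, bars the mean of 2. All 4 genes are lowest in EglN2 shRNA day 2 cells and highest in Scr cells, with the widest range for IGFBP5 at 1.46.

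The other binding proteins stayed closer to level. IGFBP2, the chromosomal neighbour of IGFBP5, read 10.64 and 10.48 in EglN2 shRNA day 2 cells, 10.63 and 10.53 in EglN2 shRNA day 0 cells, 10.73 and 10.77 in Scr day 2 cells, and 10.95 and 10.48 in Scr day 0 cells. Its day 2 arrays did not overlap between the lines, but the Scr day 0 pair spanned the whole range of the gene. The difference between the lines at day 2 was -0.19 (SE 0.15, confidence interval -0.53 to 0.15), an interval that does not reach the IGFBP5 difference of -1.46.

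IGFBP4, an inhibitory binding protein cut by the protease PAPP-A, was higher at day 2 in both lines. It read 11.11 and 11.30 in EglN2 shRNA day 2 cells against 10.97 and 11.05 in EglN2 shRNA day 0 cells, and 11.18 and 11.31 in Scr day 2 cells against 11.06 and 10.89 in Scr day 0 cells. In neither line did the days overlap. The change averaged over both lines was 0.23 (SE 0.08, confidence interval 0.05 to 0.42) and did not pass (limma adjusted p = 0.385). In that comparison of day 2 with day 0, 30 probe sets were called (0.141%), none of them a member, and 10.7% had an unadjusted p under 0.05, where the members IGFBP4, IGFBP5 and IRS1 stood. The lines differed little in IGFBP4, by -0.04 at day 2 and 0.04 at day 0.

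IGFBP3, the main carrier of IGFs in blood, read 7.55 and 7.12 in EglN2 shRNA day 2 cells, which bracketed all other arrays: 7.29 and 7.32 in EglN2 shRNA day 0 cells, 7.31 and 7.32 in Scr day 2 cells, and 7.49 and 7.43 in Scr day 0 cells. No difference between groups exceeded that spread. The probe set shared by IGFBP6, which prefers IGF2 as its ligand, and C12orf57 ran from 8.06 to 8.39 over the 8 arrays. Both ends of that range were Scr day 0 arrays, and the group means lay within 0.12 of each other.

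IGF1R was lower in the EglN2 shRNA line than in the Scr line after doxycycline by both of its probe sets, which disagreed in size. Its promoter window (RefSeq, GRCh38.p14, chr15:98648289-98648588, plus strand) is shown for contrast with IGFBP5: it is rich in GC, at 79.67%, holds 55 CG pairs, and has 1 ACGTG core, on the reverse strand, at position -146 from the start site:
IGF1R: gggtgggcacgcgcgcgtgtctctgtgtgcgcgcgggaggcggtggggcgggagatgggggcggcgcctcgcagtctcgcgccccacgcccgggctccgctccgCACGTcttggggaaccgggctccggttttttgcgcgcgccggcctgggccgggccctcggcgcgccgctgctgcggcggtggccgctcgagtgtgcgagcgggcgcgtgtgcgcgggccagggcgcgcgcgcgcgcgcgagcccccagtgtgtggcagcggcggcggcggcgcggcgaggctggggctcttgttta
Probe set 7986383 read 8.53 and 9.21 in EglN2 shRNA day 2 cells, 9.25 and 9.53 in EglN2 shRNA day 0 cells, 9.63 and 9.77 in Scr day 2 cells, and 9.18 and 9.40 in Scr day 0 cells. Scr day 2 was highest, without overlap. The EglN2 shRNA day 2 arrays lay below those of EglN2 shRNA day 0, but the higher of them was just above the lower Scr day 0 array. Probe set 7986359 read 9.34 and 9.58 in EglN2 shRNA day 2 cells, 9.57 and 9.77 in EglN2 shRNA day 0 cells, 9.77 and 9.86 in Scr day 2 cells, and 9.88 and 9.62 in Scr day 0 cells. There too EglN2 shRNA day 2 was lowest, but it overlapped EglN2 shRNA day 0. Over the 8 arrays the 2 probe sets correlated at r = 0.793 (rho = 0.467), and on both the lowest array was EglN2 shRNA day 2 replicate 1.

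At day 2 the lines differed in IGF1R by -0.83 (SE 0.20, confidence interval -1.28 to -0.38) on probe set 7986383 and by -0.36 (SE 0.13, confidence interval -0.66 to -0.05) on probe set 7986359. Neither passed (limma adjusted p = 0.372 and 0.849), although both had an unadjusted p under 0.05. With IGFBP5 they made up 3 of the 11 member probe sets at that level, beside 5.19% of the table. Without EglN2 shRNA day 2 replicate 1, the lowest array on both, they were -0.49 on probe set 7986383 and -0.23 on probe set 7986359. At day 0 the lines did not separate, at 0.10 (SE 0.20) and -0.08 (SE 0.13) in the same order. The change from day 0 to day 2 was -0.52 (SE 0.20) in the EglN2 shRNA line and 0.41 (SE 0.20) in the Scr line for probe set 7986383. For probe set 7986359 it was -0.21 (SE 0.13) and 0.07 (SE 0.13). The changes in the EglN2 shRNA line depended on single arrays. On probe set 7986383 replicate 1 read lower than replicate 2 in every group, so leaving out 1 array also unbalances the replicates. For that probe set the change was -0.18 without day 2 replicate 1 and -0.86 without day 2 replicate 2. For probe set 7986359 it was -0.09 and -0.33 without the same arrays, and -0.11 without day 0 replicate 2. Closest in pattern to probe set 7986383 were probe sets with r from 0.963 to 0.977, GATA3-AS1 and BNIPL among them.

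IGF2R and INSR showed no separation of comparable size. IGF2R read 9.92 and 10.31 in EglN2 shRNA day 2 cells, 10.03 and 10.29 in EglN2 shRNA day 0 cells, 10.34 and 10.44 in Scr day 2 cells, and 10.17 and 10.26 in Scr day 0 cells. Every Scr day 2 array was above every EglN2 shRNA array, and the difference between the lines at day 2 was -0.28 (SE 0.15, confidence interval -0.60 to 0.05). Leaving out EglN2 shRNA day 2 replicate 1 made it -0.08, and leaving out replicate 2 of that group made it -0.47. INSR read 7.48 on both EglN2 shRNA day 2 arrays, 7.40 and 7.31 at EglN2 shRNA day 0, 7.35 and 7.49 at Scr day 2, and 7.27 and 7.33 at Scr day 0. Its day 2 minus day 0 change was 0.13 in the EglN2 shRNA line and 0.12 in the Scr line (SE 0.10 each). At day 2 the lines differed in INSR by 0.06 (confidence interval -0.17 to 0.29).

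**Figure D4:**
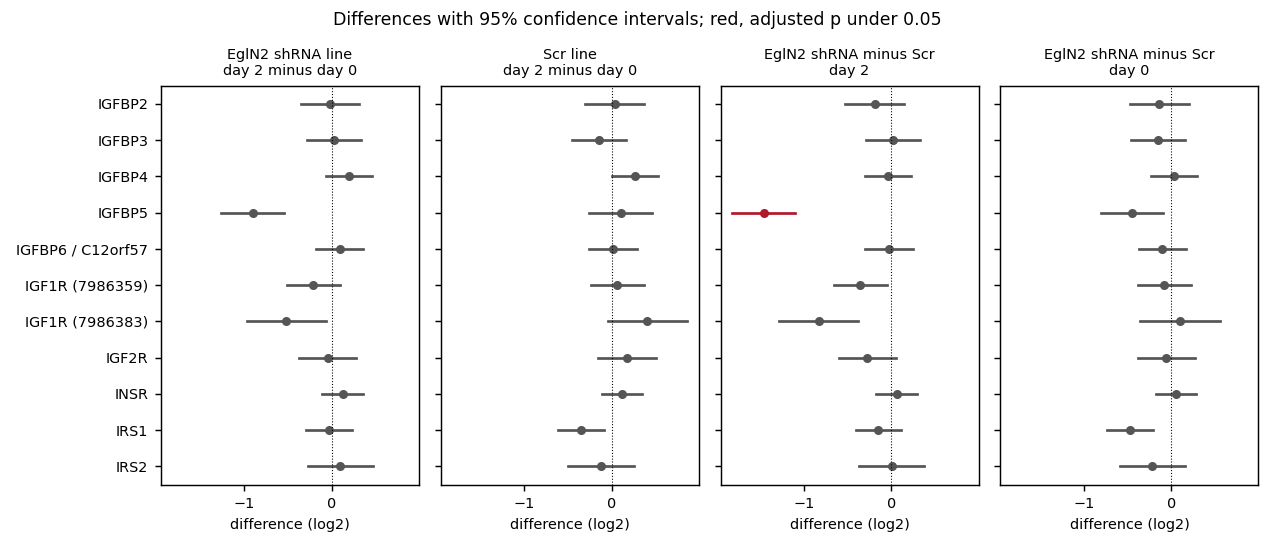
Differences of the 11 probe sets (horizontal axis, log2; points are estimates, bars 95% confidence intervals, red where the adjusted p is under 0.05) for day 2 minus day 0 in the EglN2 shRNA and Scr lines and for EglN2 shRNA minus Scr at day 2 and day 0. IGFBP5 at day 2 is the single red point, at -1.46; both IGF1R intervals lie below 0 in the same panel, and the IRS1 interval does so at day 0.

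IRS1, the main adaptor of IGF1R in estrogen receptor positive breast cells, stood apart in untreated Scr cells. Its promoter window (RefSeq, GRCh38.p14, chr2:226799771-226800070, minus strand) is printed because it holds an ACGTG core as part of a palindrome read on both strands, 36 bases into the transcribed part, with a GC content of 79.33%:
IRS1: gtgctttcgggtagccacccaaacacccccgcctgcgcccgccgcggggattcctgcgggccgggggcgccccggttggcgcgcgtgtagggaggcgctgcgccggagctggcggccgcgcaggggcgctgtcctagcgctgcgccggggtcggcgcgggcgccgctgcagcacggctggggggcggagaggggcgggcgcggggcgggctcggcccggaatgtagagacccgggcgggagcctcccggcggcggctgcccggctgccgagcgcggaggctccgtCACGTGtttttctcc
IRS1 read 6.99 and 6.89 in EglN2 shRNA day 2 cells, 6.86 and 7.08 in EglN2 shRNA day 0 cells, 7.09 on both Scr day 2 arrays, and 7.36 and 7.52 in Scr day 0 cells. The Scr day 0 arrays were above all others, and the remaining groups lay within 0.23 of each other. Between the lines at day 0 the difference was -0.47 (SE 0.12, confidence interval -0.73 to -0.21, limma adjusted p = 0.455), and it was -0.15 (SE 0.12) at day 2. The change from day 0 to day 2 was -0.03 (SE 0.12) in the EglN2 shRNA line and -0.35 (SE 0.12, limma adjusted p = 0.315) in the Scr line. The difference of those changes was 0.32 (SE 0.16, limma adjusted p = 0.702), or 0.21 without EglN2 shRNA day 0 replicate 1. IRS1 and IGFBP5 therefore had their largest differences between the lines on different days, IRS1 at day 0 and IGFBP5 at day 2; whether the days differ was tested for each gene by the difference of changes, and neither passed. Closest in pattern to IRS1 were TMCO2 (r = 0.967), CNRIP1 (0.936) and FIGNL2 (0.922), over 8 arrays that share their groups. They were picked for that likeness, and each was also highest in Scr day 0 cells. There TMCO2 read 5.41 and 5.6, CNRIP1 6.77 and 6.83, and FIGNL2 6.79 and 6.65, all below the median of the named probe sets. Whether low signal had a part in this pattern was not tested.

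IRS2, the other adaptor, read 7.63 and 7.21 in EglN2 shRNA day 2 cells, 7.33 and 7.31 in EglN2 shRNA day 0 cells, 7.52 and 7.31 in Scr day 2 cells, and 7.72 and 7.35 in Scr day 0 cells. At day 0 the EglN2 shRNA arrays lay below the Scr arrays, and all other pairs of groups overlapped. That difference was -0.22 (SE 0.17), but -0.03 without Scr day 0 replicate 1 and -0.40 without replicate 2. The mean was the same to within 0.01 in both lines at day 2. The probe sets of IGFBP3, INSR, IRS1 and IRS2 lie below the median of the named probe sets (7.84).

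As a family the members did not move one way from day 0 to day 2. Of the 11 probe sets, 5 had a positive and 6 a negative change in the EglN2 shRNA line (median -0.02, against 0.005 over all probe sets). In the Scr line 8 had a positive change (median 0.07, against -0.01). Over all probe sets 51.1% of changes were positive in the EglN2 shRNA line and 47.9% in the Scr line. Between the lines 8 of 11 were lower in EglN2 shRNA cells at day 2 (median -0.15, against 0.005), where 49.0% of all probe sets were lower, and 8 of 11 at day 0 (median -0.10, against 0.005), where 49.4% were. Averaged over both days 10 of 11 were lower (median -0.16, against 0), as were 50.6% of all probe sets. IGFBP5 was the 1 member called at day 2 and over both days, and 0 were called at day 0. The promoter windows also did not share the cores searched: all 10 genes matched, with 12 windows, and ACGTG was in 4 of the 12 windows (1 of 3 of IGFBP2, and those of IGF1R, IGF2R and IRS1, with 3 sites in IGF2R), against 21.4% of all windows. GTAAACA was in 1 window, that of IGFBP6, against 3.42% of all windows.

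A wider list of the pathway held 53 genes, of which 47 were measured by 52 single-gene probe sets: other binding proteins and their partners, proteases and protease inhibitors, and the signalling chain from the receptors to AKT, mTOR and FOXO factors. Adjusted over all probe sets, 0 of the 52 were called in 6 of the 7 comparisons by limma, with 1 to 7 at an unadjusted p under 0.05 in each comparison. That is 1.92% to 13.5% of the list, beside 5.19% to 12.9% of all probe sets. The list's median lay between -0.03 and 0.07 in every comparison. The exception was STC2, stanniocalcin 2, a secreted inhibitor of PAPP-A and so of the cutting of IGFBP4, in the comparison of day 2 with day 0 over both lines. STC2 read 11.28 and 11.05 in EglN2 shRNA day 2 cells against 10.54 and 10.43 in EglN2 shRNA day 0 cells, and 10.89 and 10.81 in Scr day 2 cells against 10.43 and 10.22 in Scr day 0 cells. All day 2 arrays were above all day 0 arrays. STC2 rose by 0.60 (SE 0.09, limma adjusted p = 0.0392), a call lost without any single array, at adjusted p from 0.064 to 0.229, and with all probe sets (0.239).

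Others of the wider list did not pass. The forkhead factor gene FOXO4 had the next largest moderated t in that comparison (0.27, SE 0.08), and the most negative were those of PIK3R3, a regulatory subunit of phosphatidylinositol 3-kinase (-0.27, SE 0.08), and IGFBPL1, a binding protein relative (-0.30, SE 0.09). Within the EglN2 shRNA line the positive ones were STC2 (0.68) and FOXO4 (0.38) and the negative ones SOS1 (-0.27) and PIK3R3 (-0.24). Within the Scr line they were STC2 (0.53) and the docking protein gene GAB1 (0.27), and IGFBPL1 (-0.39) and PIK3R3 (-0.31). GAB1 also had the most negative moderated t in the difference of changes (-0.39, SE 0.15), with SOS2 next (-0.40, SE 0.21), and EIF4EBP1 (0.32) and INSRR (0.44) on the positive side. Between the lines at day 2 STC2 (0.32) and PIK3R3 (0.26) were on the positive side and SOS2 (-0.39) and STC1 (-0.37), the paralog of STC2, on the negative. At day 0 these were RHEB (0.29) and PIK3CB (0.23), and IGFALS (-0.30), which encodes the partner of IGFBP3 and IGFBP5 in blood, and SOCS3 (-0.23). Over both days they were PIK3R3 (0.23) and STC2 (0.24), and IGFALS (-0.22) and SOCS1 (-0.30).

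**Figure D5:**
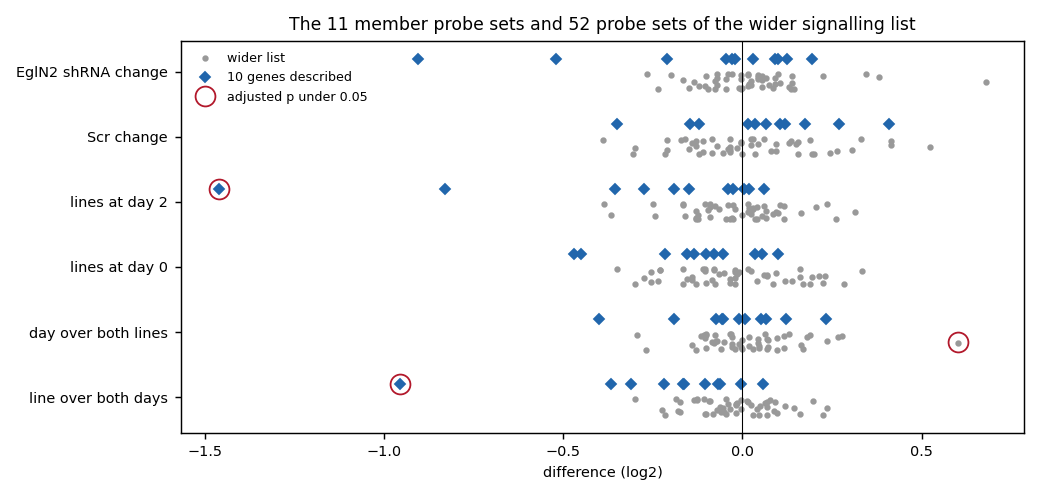
Difference (horizontal axis, log2) of the 11 member probe sets (blue diamonds) and of 52 probe sets of the wider signalling list (grey points) in 6 comparisons, one per row; red circles mark an adjusted p under 0.05. IGFBP5 is circled at -1.46 and -0.96 and STC2 at 0.60, and nearly all other points lie within 0.5 of 0.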

How the data were processed

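RNA of 8 T47D samples was measured on Affymetrix arrays. The deposited log2 values are the authors' RMA output; per the submitters' processing notes the program was Affymetrix Expression Console, and neither version nor genome build is given in the sources used here. Array medians over the 21214 named probe sets of 33297 lay between 7.81 and 7.86, and replicates correlated at 0.992 to 0.996. Values were used as deposited. Symbols came from the platform's gene table, updated by gene ID through RefSeq (GRCh38.p14). In the fit, and for the members and EGLN2, a probe set with several genes was kept under all its names. The wider list, the cell markers and the search for similar patterns used single-gene probe sets.

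Group means of the 4 groups were fitted across all probe sets with limma 3.58.1 in R 4.3.3 (residual degrees of freedom 4, prior 5.53), two-sided, with Benjamini-Hochberg adjustment and a threshold of 0.05. With 2 arrays a group, an exact permutation p is at least 0.333. The fit was run on simulated data with independent noise and planted changes, as a check of the code only. Members, lists and tests were chosen with earlier results of these data known. The text names every member, EGLN2, up to 2 genes of the wider list in each direction by moderated t, and the 3 genes most like each of the 3 members with the widest range in pattern; 1 gene like IGF1R is not reported here. Protein sequences were not used here. Alternatives were a replicate block, all probe sets, a low-signal filter, another variance prior, median centring, only the arrays compared, and leaving out each array.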

Additional observations from a re-analysis of the deposited data

Results flagged for a closer look

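IGF1R probe set 7986383 read lower at day 2 than at day 0 in the EglN2 shRNA line and higher in the Scr line, whichever arrays were compared. It was picked by that pattern from the 11 member probe sets. The share of all probe sets with such a pattern was not counted, so the pattern is only described. Each EglN2 shRNA day 2 array was below each EglN2 shRNA day 0 array, by 0.04 to 1.0, and each Scr day 2 array was above each Scr day 0 array, by 0.23 to 0.59. The change in the EglN2 shRNA line minus that in the Scr line was -0.93 (SE 0.29, 95% confidence interval -1.57 to -0.29), and this difference did not pass (adjusted p = 0.676 by limma, over the whole table). It was -0.59 without EglN2 shRNA day 2 replicate 1, and from -1.27 to -0.59 over all alternatives. The second IGF1R probe set, 7986359, gave -0.28 (SE 0.19), with overlapping arrays in both lines. That value ran from -0.41 to -0.15 over all alternatives, at -0.16 without EglN2 shRNA day 2 replicate 1, -0.18 without EglN2 shRNA day 0 replicate 2 and -0.15 without Scr day 0 replicate 2.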

How the results depend on the processing

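Of the 77 member differences (11 probe sets in 7 comparisons), 41 kept their sign under every alternative and 36 changed it or came to 0 under at least 1; the largest of those 36 was 0.17 in size. All 18 with an unadjusted p under 0.05 kept their sign. IGFBP5 alone was ever called. In the comparison of the lines at day 2, 1 member was called, and 0 when all 33297 probe sets entered or when only the 4 arrays compared were used; leaving out single arrays gave 0 to 1. Over both days the 1 member called became 0 with all probe sets and with arrays centred on their medians, and 0 to 1 without single arrays. Where a group was left with 1 array, that array was assumed to vary like the others. With the replicate block 1 member was called in the EglN2 shRNA line's change (IGFBP5, adjusted p = 0.0398) against 0 without it, and no other member call changed. The labels do not say what a replicate number marks, and same-numbered arrays deviated together at correlations of 0.0981 to 0.271.

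Counts of all probe sets called moved by over 1.5 times with most settings. With the block they were 13 (against 2) and 42 (against 0) in the EglN2 shRNA and Scr changes, 32 (against 16) between the lines at day 2, 150 (against 30) for the days and 18 (against 7) for the lines over both days. With all probe sets every comparison called 0. The low-signal filter gave 4, 7, 34, 75 and 11 in the same order, and the other variance prior 5, 7, 31, 75 and 15, plus 2 for the difference of changes. Centring gave 4 for the lines over both days. Using only the arrays compared gave 0 in each of the 4 comparisons of 2 groups. Leaving out single arrays gave 0 to 2 in the EglN2 shRNA change, 0 to 15 between the lines at day 2, 0 to 20 for the days and 0 to 6 for the lines over both days. The cause of these moves was not tested. Signal over background was not analysed here.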
